A study of Mus musculus with 34 samples.

Results

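The genes of cholesterol and fatty acid synthesis were examined in MOSJ-Dkk-1 osteosarcoma cultures and tumours. The set was a list of 34 genes of the sterol and fatty acid pathways and their regulators, chosen by name as members of these pathways, with earlier results of these data known; no measured value entered the rule. Of these, 31 were among the 16576 genes listed for the cultures and 13 were among the 12595 genes listed for the tumours. Fdps, Tm7sf2 and Scd2 were not analysed in the cultures.

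Cells make cholesterol from acetyl-CoA by way of mevalonate, isoprenoids, squalene and lanosterol, and make fatty acids from malonyl-CoA before elongating and desaturating the chain. The transcription factors SREBP-1 and SREBP-2, encoded by Srebf1 and Srebf2, raise transcription of most of these enzymes when membrane sterol is low. Scap escorts the SREBPs to the Golgi for cleavage, and Insig1 and Insig2 hold Scap in the endoplasmic reticulum when sterol is plentiful. Dividing cells draw on these pathways for new membrane.

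MOSJ-Dkk-1 is a mouse osteosarcoma line carrying a lentiviral cassette in which the CMV promoter drives human Dkk-1, a secreted inhibitor of Wnt signalling. All groups carried this cassette, and cells with the empty vector were not analysed here. Cultures received no morpholino (NT), 5 µM of a scrambled morpholino (scrMo) or 5 µM of a morpholino directed at Dkk-1 (DkkMo). Each was sampled in log phase or under nutritional stress, with 3 libraries per group. Log phase was sampled after 6 days with regular feeding, and stress was 48 h at confluence within 4 days on unchanged medium. The dose is that of the paper's methods, while a figure legend for the log-phase comparison gives a higher DkkMo dose. Tumours were grown from these cells in immune-deficient NU/J nude mice, which were 2 months old when the cells were given, and the mice received vehicle (NT), doxorubicin (DRB), DkkMo or DRB with DkkMo (Combination), with 4 tumours per group. The tumours had been fixed in formaldehyde, contained host stroma and had no scrMo group. Nothing in the labels says whether the 3 libraries of a culture group came from independent experiments, so p-values measure the spread between these libraries, which may be technical.

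Depth was 25.9 to 44.8 megareads on listed genes in the cultures and 26.9 to 125 megareads in the tumours. By tumour group it was 53.84 to 125.1 in NT, 85.32 to 106.1 with DRB, 26.86 to 52.13 with DkkMo and 28.33 to 41.05 with the combination. Genes without reads numbered 165 to 316 in DRB tumours and 537 to 1474 in combination tumours. The part of depth in the tumour differences was not tested. Of 8 osteoblast and osteosarcoma markers, 7 were listed in the cultures (Sp7 was not) and all 8 in the tumours. Defining markers of adipocytes, endothelium and macrophages such as Adipoq, Cdh5 and Adgre1 were not listed in the cultures. Other markers were: 2 of 8 for adipocytes (Fabp4 and Plin4), 1 of 5 for endothelium (Pecam1) and 3 of 7 for macrophages. Their mean summed normalised counts in log NT were 1108, 292.2 and 971.1. The morpholino was directed at human Dkk-1 and the reads were aligned to a mouse genome, so its target could not be checked. Mouse Dkk1 was not among the genes analysed in either set. The summed normalised count of 5 proliferation markers (Mki67, Top2a, Birc5, Ccnb1 and Cdk1) was 14830 to 17970 in log NT, 8602 to 11540 in log scrMo and 15540 to 24510 in log DkkMo cultures, and 1054 to 1465 in the stressed cultures. In log phase the DkkMo library numbered 2 stood above the other DkkMo libraries for many sterol genes, with a mean level of the sterol-step genes 0.37 above their overall mean on the log2 scale against 0.12 and 0.09 in the others. Calls that rest on it are given with and without it. Other differences, counts by adjusted p alone and medians are given with it only.

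RefSeq promoters, spanning 250 bases before to 50 bases after the start of transcription (GRCm38.p6), were matched for 27 of the 34 genes, some with several starts, giving 35 promoters. They were searched on both strands for the sterol regulatory element that binds SREBPs, in the form TCACCCCAC, and for the boxes CCAAT and GGGCGG of the partner factors NF-Y and Sp1. The element in this form was in the promoter of Hmgcs1 and of no other gene among the 27 matched. That was 2.86% of the set's promoters, beside 0.551% of all 32851 promoters. The looser form TCACNCCAC added no further gene and was in 1.24% of all promoters. Other variants of the element were not searched. A CCAAT box was in 65.7% of the set's promoters and 37.4% of all promoters, and a GGGCGG box in 74.3% and 35.7%. An E-box, CACGTG, was in 20% of the set's promoters and 7.15% of all promoters. A match describes letters, not binding. The 250 bases before the start are shown for Hmgcs1, which holds the element, for Cyp51 and Srebf2, which fell with stress, and for Insig1, whose change with stress differed between treatments, with any of these 3 motifs (the element, CCAAT and GGGCGG, on either strand) in capitals.
Hmgcs1 (chr13:119690101-119690350, plus strand): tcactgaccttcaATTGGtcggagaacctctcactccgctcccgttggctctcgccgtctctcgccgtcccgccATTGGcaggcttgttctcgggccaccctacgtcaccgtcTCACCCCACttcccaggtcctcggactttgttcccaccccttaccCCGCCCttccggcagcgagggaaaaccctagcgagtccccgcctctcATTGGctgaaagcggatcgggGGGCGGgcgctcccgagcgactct
Cyp51 (chr5:4104698-4104947, minus strand): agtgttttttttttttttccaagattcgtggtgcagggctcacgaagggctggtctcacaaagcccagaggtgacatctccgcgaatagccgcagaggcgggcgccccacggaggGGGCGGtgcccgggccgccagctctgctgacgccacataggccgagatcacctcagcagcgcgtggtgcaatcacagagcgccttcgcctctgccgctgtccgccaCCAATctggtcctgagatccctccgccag
Srebf2 (chr15:82147019-82147268, plus strand): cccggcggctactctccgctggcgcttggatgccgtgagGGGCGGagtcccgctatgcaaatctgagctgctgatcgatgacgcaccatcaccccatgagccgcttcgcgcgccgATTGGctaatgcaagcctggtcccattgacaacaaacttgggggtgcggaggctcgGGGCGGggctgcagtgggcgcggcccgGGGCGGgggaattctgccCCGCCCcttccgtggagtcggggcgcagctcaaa
Insig1 (chr5:28071162-28071411, plus strand): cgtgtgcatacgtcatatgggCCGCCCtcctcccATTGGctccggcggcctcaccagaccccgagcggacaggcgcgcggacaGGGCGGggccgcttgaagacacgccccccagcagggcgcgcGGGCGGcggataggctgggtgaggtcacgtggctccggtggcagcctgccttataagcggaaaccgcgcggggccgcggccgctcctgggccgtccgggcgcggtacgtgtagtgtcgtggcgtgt
The element in Hmgcs1 began 137 bases before the start, and that stretch held 3 CCAAT boxes beside it, while Cyp51, Srebf2 and Insig1 each held 1.

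Levels below are normalised counts, the reads of a gene divided by the size factor of its library. Log2 differences are those of the deposited variance-stabilised values, which are smaller than the log2 ratio of normalised counts for genes with few reads. A gene was called where limma, fitted over all genes, gave a Benjamini-Hochberg adjusted p below 0.05 and the difference exceeded 1.5-fold on the deposited scale.

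Nutritional stress lowered the regulator Srebf2 and some other genes of the set. In NT cultures the fatty acid elongase Elovl6 and the desaturase Fads2 fell most. The enzymes with the most reads, Fasn and Scd1, moved little there. In NT cultures 0 genes of the set were called higher and 6 of 31 lower, beside 18.1% of all genes called in either direction. The called share of the set was close to that of all genes, so this count does not set these genes apart. By adjusted p alone 5 were higher and 19 lower, beside 31.5% and 34.1% of all genes, and the libraries of the groups did not overlap for 28 of the 31, beside 74.6% of all genes. The median difference over the 31 genes was -0.29, against -0.01 over all genes. The medians of the libraries themselves fell by 0.16 on the log2 scale, and with each library centred on its median the set's median was -0.13. Proliferation markers fell in the same comparison, 5 of 5 being called lower. Of the 7 osteoblast and osteosarcoma markers 4 were called lower and 1 higher, and their sum went from 247200 to 279200 in log NT to 76220 to 82730 in stress NT. Of the 7 macrophage markers 3 were listed, with a sum of 942.7 to 1016 in log NT and 2081 to 2410 in stress NT. The part of these markers in the result was not tested. In bulk RNA, fewer cells of a kind and less RNA per cell cannot be told apart.

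**Figure D1:**
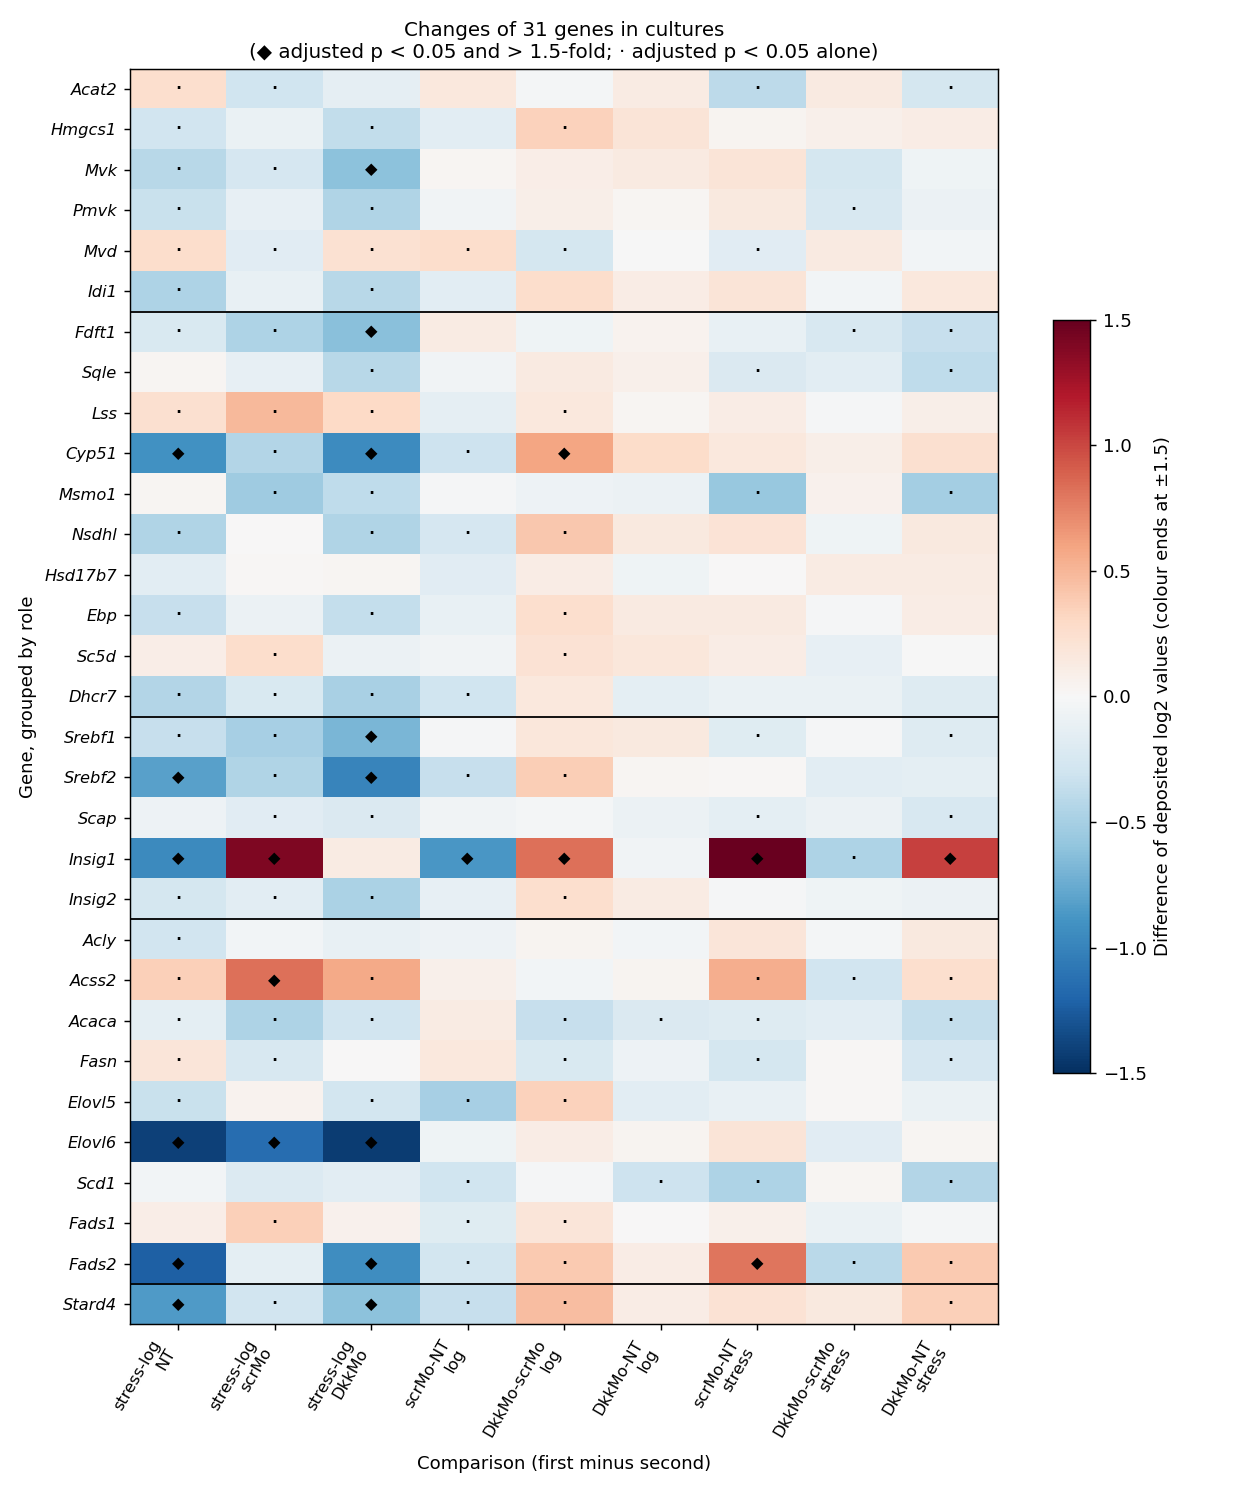
Differences of deposited log2 values for the 31 genes analysed in the cultures (rows, grouped by role, with mevalonate steps at the top, then sterol steps, regulators, fatty acid genes and Stard4) in 9 comparisons (columns); diamonds mark called genes and dots adjusted p below 0.05 alone. Elovl6 was called lower with stress in all 3 treatments, and Insig1 was called in 6 of the 9 comparisons, in both directions.

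Elovl6, which extends palmitate to stearate, had 912.7, 1171 and 1162 normalised counts in log NT and 271.6, 230.2 and 283.5 in stress NT. In scrMo cultures it went from 901.1, 1033 and 1122 to 332.3, 298.8 and 357.7, and in DkkMo cultures from 952.5, 1285 and 1132 to 244.5, 297.2 and 267.8. All 9 stressed libraries lay below all 9 log-phase libraries. The log2 difference was -1.40 ± 0.09 (SE, adjusted p = 7.79e-11 by limma) in NT, -1.14 ± 0.09 (adjusted p = 3.44e-09) in scrMo and -1.42 ± 0.09 (adjusted p = 8.42e-11) in DkkMo cultures, a ratio of mean normalised counts of 4.13, 3.09 and 4.16 in favour of log phase.

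Srebf2, the SREBP that chiefly drives sterol synthesis, had 6348, 6885 and 7202 normalised counts in log NT and 3796, 3701 and 3762 in stress NT. In log scrMo it had 5929, 4755 and 5273, and in stress scrMo 3729, 3906 and 3750. In log DkkMo it had 6545, 8174 and 6278, and in stress DkkMo 3451, 3327 and 3340. Every stressed library was below every log-phase library. Its difference was -0.81 ± 0.08 in NT (adjusted p = 3.47e-08) and -0.98 ± 0.08 in DkkMo cultures (adjusted p = 2.74e-09), both called, and -0.45 ± 0.08 in scrMo cultures (adjusted p = 8.03e-05), under the fold threshold. Srebf1, the SREBP tied more to fatty acid synthesis, went from 2425 ± 49.7 to 1856 ± 58.3 (SD, n = 3) in NT and from 2715 ± 92.7 to 1591 ± 71.4 in DkkMo cultures, and was called lower only in the latter (-0.68 ± 0.06, adjusted p = 1.38e-08), a call lost when each library was centred on its median (-0.52). Scap and Insig2 were not called in any culture comparison.

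**Figure D2:**
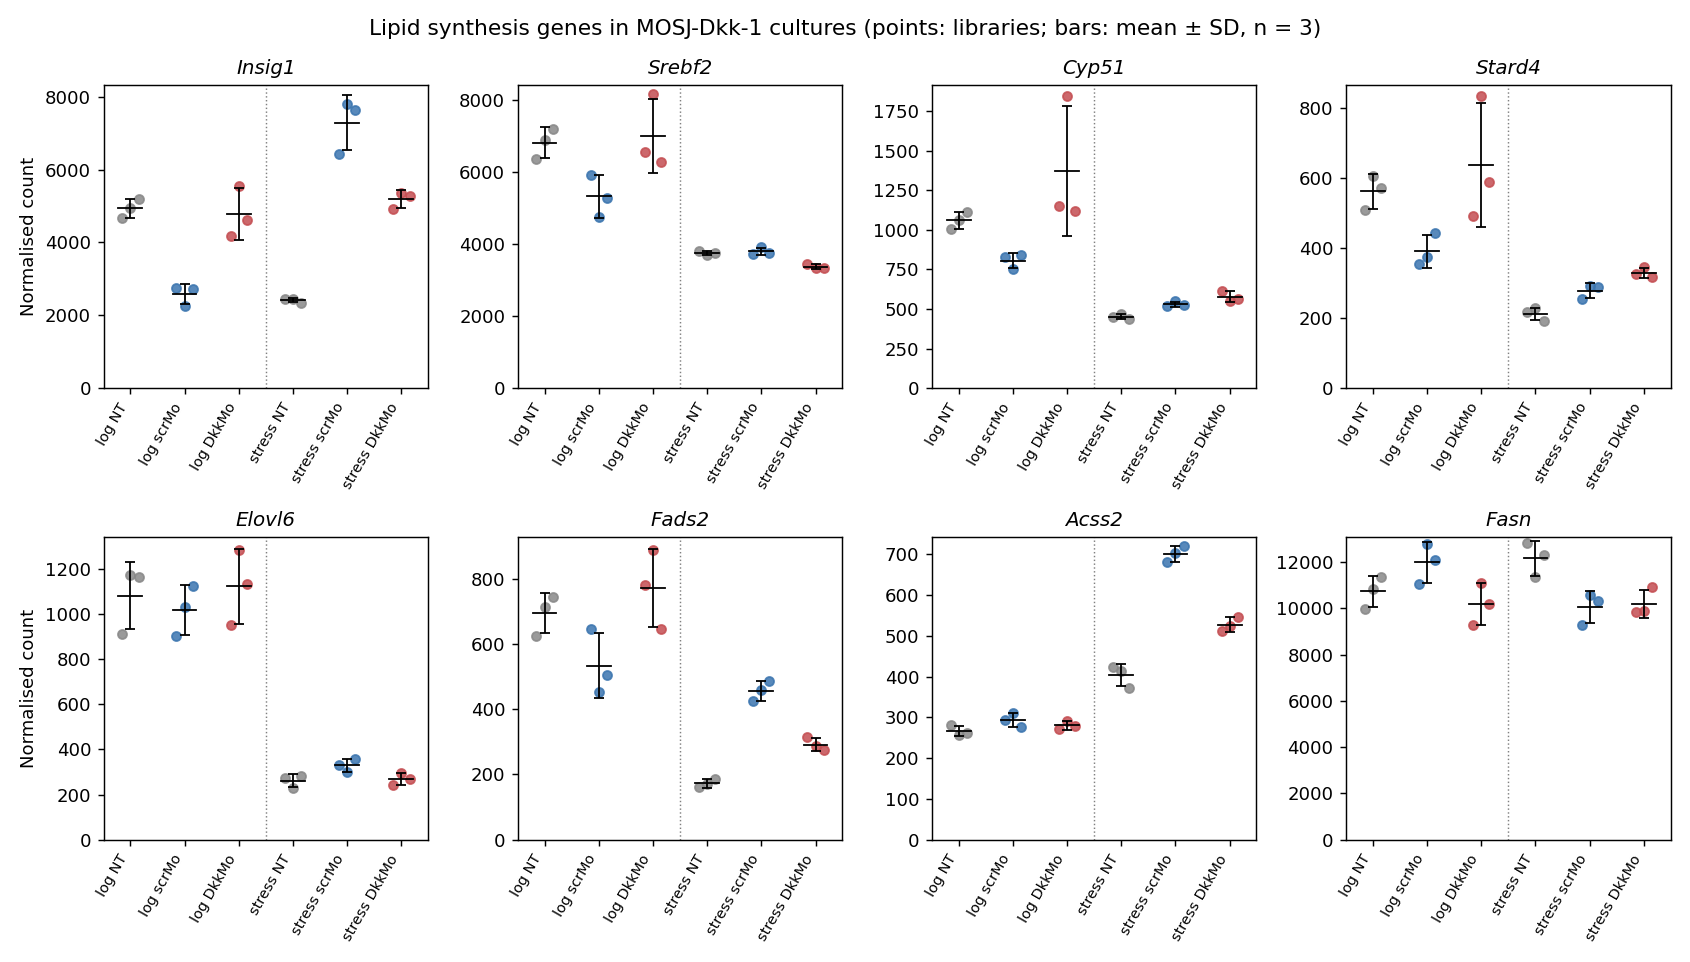
Normalised counts of 8 genes in the 6 culture groups, with 1 point per library and bars for the mean ± SD (n = 3); the dotted line separates log phase from nutritional stress. Srebf2, Cyp51, Stard4 and Elovl6 were lower in every stressed library than in every log-phase one, whereas Insig1 rose with stress in scrMo cultures and fell in NT cultures.

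Of the steps to mevalonate and isoprenoids, which begin with the thiolase Acat2 and the synthase Hmgcs1, 2 of 6 genes were higher and 4 lower in stress NT by adjusted p and none were called. Idi1, the isopentenyl diphosphate isomerase, had 124.3, 141 and 132.8 normalised counts in log NT and 57.6, 45.6 and 57.9 in stress NT, a ratio of 2.47 in favour of log phase. Its difference on the compressed deposited scale was -0.47 ± 0.10 (adjusted p = 4.82e-04), so it was not called. Mvk, mevalonate kinase, went from 422.9 ± 51.9 to 262.5 ± 14.0 in NT and from 490.1 ± 114 to 241.7 ± 33.5 in DkkMo cultures, and was called lower in DkkMo cultures (-0.61 ± 0.09, adjusted p = 1.32e-05). That call was lost without log DkkMo replicate 2 (-0.49), without stress DkkMo replicate 2 (-0.55) and with centring (-0.45). Mvd, the decarboxylase that closes the mevalonate steps, went from 489.1 ± 38.1 to 633.6 ± 26.7 in NT cultures (0.26 ± 0.06, adjusted p = 6.13e-04) and was also higher with stress in DkkMo cultures (0.23 ± 0.06, adjusted p = 0.00203), but it was lower in scrMo cultures, with means of 633 and 533.2 (-0.17 ± 0.06, adjusted p = 0.0163). None of these passed the fold threshold.

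Of the 10 sterol-step genes, Cyp51, the lanosterol demethylase, changed most with stress in NT and DkkMo cultures, while in scrMo cultures Msmo1 (-0.53), Lss (0.48) and Fdft1 (-0.46) changed more. Cyp51 had 1007, 1064 and 1113 normalised counts in log NT and 452.4, 467.7 and 437.2 in stress NT. In log scrMo the values were 829.7, 750.4 and 838.9, and in stress scrMo 516.9, 549 and 522.9. In log DkkMo they were 1151, 1847 and 1123, and in stress DkkMo 615.8, 552.5 and 563.5. The groups did not overlap within any treatment. The difference was -0.90 ± 0.10 in NT (adjusted p = 2.60e-07) and -0.94 ± 0.10 in DkkMo cultures (adjusted p = 1.68e-07), both called, and -0.44 ± 0.10 in scrMo cultures (adjusted p = 0.00123), not called. Fdft1, squalene synthase, was called lower in DkkMo cultures, from 1577 ± 165 to 927.8 ± 65.2 (-0.63 ± 0.08, adjusted p = 5.68e-07), and fell below the fold threshold without log DkkMo replicate 2 (-0.57) and with centring (-0.46). Of its exon bases, 18.3% overlap Ctsb on the opposite strand, and whether reads were counted by strand is not given in the sources used here, so the reads of these genes cannot be told apart there. Lss, lanosterol synthase, moved opposite to Cyp51, the enzyme that follows it. Its 747.5 ± 26.1 normalised counts in log NT stood against 924.8 ± 27.0 in stress NT (0.24 ± 0.05, adjusted p = 7.21e-04), and its 657.4 ± 46.6 in log scrMo against 1018 ± 50.9 in stress scrMo (0.48 ± 0.05, adjusted p = 3.10e-07). Sqle, squalene epoxidase, had 3131 ± 132 in log NT and 3214 ± 122 in stress NT, 2996 ± 144 and 2734 ± 196 in scrMo, and 3332 ± 455 and 2409 ± 87.6 in DkkMo cultures, where it was lower with stress by adjusted p (-0.42 ± 0.07, adjusted p = 3.60e-05) and not called. Msmo1, a sterol demethylase, was at 1545 ± 113 in log NT and 1582 ± 64.2 in stress NT, but at 976.3 ± 52.4 in stress scrMo and 1033 ± 56.4 in stress DkkMo.

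Stard4, which carries cholesterol between membranes, had 507, 605.2 and 571.7 normalised counts in log NT and 215.7, 227.1 and 191.6 in stress NT. In log DkkMo it had 491.2, 833.2 and 586.8, and in stress DkkMo 324.7, 344.2 and 316.7. Neither pair of groups overlapped. It was called lower in NT (-0.85 ± 0.10, adjusted p = 2.00e-07) and DkkMo cultures (-0.61 ± 0.10, adjusted p = 1.51e-05), and the call in DkkMo cultures was lost without log DkkMo replicate 2 (-0.46) and with centring (-0.45). In scrMo cultures the difference was -0.29 ± 0.10 (adjusted p = 0.0137), not called.

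Among fatty acid genes the acetyl-CoA sources moved apart with stress in NT cultures. Acss2, which makes acetyl-CoA from acetate, had 280.6, 256.3 and 261.8 normalised counts in log NT and 422.7, 414.8 and 372.7 in stress NT. In log scrMo it had 292.5, 311.6 and 277.6, and in stress scrMo 681.1, 702 and 719.2. In log DkkMo it had 270.6, 291 and 279.7, and in stress DkkMo 511.3, 523.9 and 547.2. The stressed libraries were above the log-phase libraries throughout, highest with scrMo, intermediate with DkkMo and lowest with NT, without overlap. It was called higher in scrMo cultures (0.83 ± 0.05, adjusted p = 4.48e-11), while the differences of 0.36 ± 0.05 in NT (adjusted p = 1.76e-06) and 0.57 ± 0.05 in DkkMo cultures (adjusted p = 3.32e-09) were under the fold threshold. Of Acss2's exon bases 9.12% overlap genes on the opposite strand. Acly, which makes acetyl-CoA from citrate, went from 5945 ± 305 to 4817 ± 274 in NT cultures (-0.29 ± 0.08, adjusted p = 0.00258) and was not called in any culture comparison. Its means in log phase and stress were closer in scrMo cultures (5663 and 5479) and in DkkMo cultures (5811 and 5352). Fasn, the fatty acid synthase, had the most reads of the set, with group means of 10050 to 12150 normalised counts, and was not called in any culture comparison.

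Per kilobase of exon, the level in log NT was highest for Insig1 (1597 normalised counts per kb), followed by Scd1 (1521), Acat2 (1425) and Acly (1126). It was lowest for Acss2 (26.2) and Idi1 (37.9). In stress NT the order was led by Acat2 (1726), Scd1 (1475) and Fasn (1110), with Insig1 at 779.1.

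The response of Insig1 to stress differed between the treatments. Insig1 had 4671, 4942 and 5207 normalised counts in log NT, 2751, 2259 and 2726 in log scrMo, and 4183, 5563 and 4613 in log DkkMo. Under stress it had 2436, 2451 and 2342 in NT, 6442, 7808 and 7638 in scrMo, and 4909, 5364 and 5288 in DkkMo. In log phase every scrMo library was below every NT and DkkMo library. Under stress the order was turned, every scrMo library lying above every DkkMo library and these above every NT library, an order that Acss2 and Fads2 shared. With stress Insig1 fell in NT cultures (-0.96 ± 0.09, adjusted p = 1.46e-08), rose in scrMo cultures (1.40 ± 0.09, adjusted p = 1.69e-10) and differed by 0.12 ± 0.09 in DkkMo cultures (adjusted p = 0.253). Over the 18 libraries its deposited values had a Pearson correlation of 0.0016 with the mean of the mevalonate and sterol-step genes, where Srebf2 had 0.95 and Cyp51 0.91. For a gene of these steps, its own values were left out of that mean. Other genes of the set were also far from that mean, among them Fasn (0.038), Acat2 (0.15), Sc5d (-0.13), Fads1 (-0.39), Mvd (-0.60), Lss (-0.69) and Acss2 (-0.75). These libraries share their stress and morpholino groups, so the correlations describe the pattern and carry no test.

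In scrMo against NT cultures Insig1 was called lower in log phase (-0.87 ± 0.09, adjusted p = 8.55e-07), a ratio of 1.92 in favour of NT, and it was the 1 gene of the set called there, beside 2.45% of all genes. On adjusted p alone, 1 was higher and 10 lower in that comparison, beside 11.8% and 14.6% of all genes. Under stress Insig1 was called higher with scrMo (1.49 ± 0.09, adjusted p = 3.27e-10), 3.03 times the NT mean, and so was Fads2, and no other gene of the set, beside 4.43% of all genes. By adjusted p alone 3 were higher and 9 lower, beside 22.1% and 24.7% of all genes. The difference between these 2 scrMo effects was itself tested. It was 2.36 ± 0.13 for Insig1 (adjusted p = 1.14e-10) and 1.08 ± 0.12 for Fads2 (adjusted p = 1.17e-06), the 2 genes called, beside 10.9% of all genes. Acat2 (-0.56 ± 0.11), Msmo1 (-0.56 ± 0.10) and Stard4 (0.56 ± 0.14) were just under the fold threshold, and a pair of them was called as well, for a count of 4, without log NT replicate 3, log scrMo replicate 2, log scrMo replicate 3, stress NT replicate 3 or stress scrMo replicate 1. On adjusted p alone, 12 genes of the set had a more positive scrMo effect under stress and 5 a more negative one, beside 22.8% and 23.2% of all genes, the latter being Acat2, Mvd, Msmo1, Acaca and Fasn.

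Fads2, the desaturase that begins the synthesis of long polyunsaturated fatty acids, had 624.2, 714.2 and 742.1 normalised counts in log NT, 644.2, 451.1 and 503.2 in log scrMo, and 780.6, 886.9 and 646.8 in log DkkMo. Under stress it had 160.7, 171.1 and 185.9 in NT, 425.2, 458.2 and 486.9 in scrMo, and 313.5, 285.9 and 274.8 in DkkMo. The 3 stressed groups did not overlap and stood in the same order as for Insig1. Stress lowered Fads2 in NT (-1.22 ± 0.09, adjusted p = 2.82e-10) and DkkMo cultures (-0.93 ± 0.09, adjusted p = 1.48e-08), while in scrMo cultures the difference was -0.14 ± 0.09 (adjusted p = 0.162). Against NT under stress it was 0.80 ± 0.09 higher with scrMo (adjusted p = 5.47e-07), called, and 0.40 ± 0.09 higher with DkkMo (adjusted p = 0.0011), below the fold threshold although the means differed 1.69-fold. Fads1, the desaturase that acts after it, was at 3091 to 3191 in log NT and 3338 to 3415 in stress NT.

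In log phase, DkkMo against scrMo cultures had 2 genes of the set called higher, Insig1 and Cyp51, and 0 lower, beside 1.97% of all genes called. By adjusted p alone 13 were higher and 3 lower (Mvd, Acaca and Fasn), beside 14.3% and 9.2% of all genes. The median over the set was 0.15 against 0.00 over all genes. Insig1 was 0.82 ± 0.09 higher (adjusted p = 3.97e-06) and Cyp51 0.59 ± 0.10 higher (adjusted p = 3.97e-04). Insig1 remained called without each library in turn, whereas Cyp51 fell below the fold threshold without log DkkMo replicate 2 (0.39), without log scrMo replicate 2 (0.55) and with centring (0.52). Stard4 (0.46 ± 0.10), Nsdhl (0.40 ± 0.09) and Srebf2 (0.37 ± 0.08) passed the adjusted p and not the fold. For each of these genes log DkkMo replicate 2 was the highest DkkMo library, and the differences are given with it only. Against NT in log phase, 0 genes of the set were called with DkkMo by limma, beside 0.827% of all genes, and Insig1 differed by -0.05 ± 0.09 (adjusted p = 0.796). On adjusted p alone, 0 were higher and 2 lower there (Acaca and Scd1), beside 5.36% and 4.46% of all genes, and by unadjusted p below 0.05 the count was 6 of 31, beside 22.8% of all genes. The comparisons with scrMo and with NT share libraries. All 5 proliferation markers were called higher in DkkMo against scrMo cultures, and all 5 were lower in scrMo against NT by adjusted p, 2 of them called, and their part in these results was not tested.

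Under stress no gene of the set was called between DkkMo and scrMo cultures, where limma called 1% of all genes. By adjusted p alone 5 were lower with DkkMo (Pmvk, Fdft1, Insig1, Acss2 and Fads2) and 0 higher, beside 10.9% and 9.97% of all genes. By unadjusted p below 0.05 the count was 11 of 31, beside 32.6% of all genes, and limma voom on the recovered reads and limma on log2 normalised counts each called 1. Insig1 was 0.47 ± 0.09 lower (adjusted p = 8.74e-04) and Fads2 0.40 ± 0.09 lower (adjusted p = 0.00227). Fads2 had a ratio of 1.57 in favour of scrMo on normalised counts. The change of the DkkMo effect from log phase to stress was called for Insig1 (-1.29 ± 0.13, adjusted p = 1.48e-06) and Fads2 (-0.79 ± 0.12, adjusted p = 1.48e-04), and for no other gene of the set, beside 3.7% of all genes. Without log DkkMo replicate 3, Cyp51 (-0.61) and Srebf2 (-0.60) were called as well. On adjusted p alone, 13 were more negative under stress and 1, Mvd, more positive, beside 13.2% and 8.93% of all genes.

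Against NT under stress, DkkMo cultures had 1 gene called, Insig1 (1.02 ± 0.09 higher, adjusted p = 9.02e-08), beside 2.66% of all genes. By adjusted p alone 4 were higher and 9 lower, beside 19% and 22.7% of all genes. Here, as with scrMo, the enzymes Msmo1, Scd1, Acaca and Fasn were lower by adjusted p while Insig1, Acss2 and Fads2 were higher. For Msmo1 the difference from NT was -0.51 ± 0.07 with DkkMo (adjusted p = 2.73e-05) and -0.57 ± 0.07 with scrMo (adjusted p = 4.81e-06). For Scd1, the stearoyl-CoA desaturase, it was -0.44 ± 0.09 (adjusted p = 7.53e-04) and -0.46 ± 0.09 (adjusted p = 3.55e-04). None of these passed the fold threshold, and both comparisons use the same 3 NT libraries.

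Of stressed against log-phase DkkMo cultures, 8 genes were called lower and 0 higher, beside 16.5% of all genes: Mvk, Fdft1, Cyp51, Srebf1, Srebf2, Elovl6, Fads2 and Stard4. On adjusted p alone, 3 were higher and 20 lower, beside 30.4% and 35.2% of all genes. In scrMo cultures 2 were called higher (Insig1 and Acss2) and 1 lower (Elovl6), beside 10.7% of all genes. By adjusted p alone 5 were higher and 15 lower, beside 28% and 30.8% of all genes. With centring 4 were called lower in DkkMo cultures (Cyp51, Srebf2, Elovl6 and Fads2) and 1 higher (Acss2). On log2 normalised counts the count was 13, where it was 12 in NT and 6 in scrMo cultures. The shares of all genes called under these settings are not given here, so these counts cannot be set beside the shares above.

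Of 15 further SREBP targets, 13 were analysed, and by adjusted p 0 were higher and 9 lower with stress in NT cultures, beside 31.5% and 34.1% of all genes. In scrMo cultures 2 were higher and 9 lower, beside 28% and 30.8%, and in DkkMo cultures 1 was higher and 10 lower, beside 30.4% and 35.2%. The calls with the fold threshold numbered 2, 4 and 4 of 13 in the same order, beside 18.1%, 10.7% and 16.5% of all genes. For the lists that follow, the counts in NT cultures stand beside the same 18.1%, and nothing is called particular to a list from them. Of 10 genes for SREBP processing and sterol sensing, 8 were analysed, and 2 were called lower with stress in NT cultures and 2 in DkkMo cultures. Mbtps1, the site-1 protease that cleaves SREBPs, went from 5546 to 2711 mean normalised counts in NT cultures (-0.96 ± 0.05, adjusted p = 4.01e-12). Rnf145, a ubiquitin ligase of sterol sensing, went from 6594 to 3496 (-0.87 ± 0.07, adjusted p = 8.89e-10). Of 11 genes for cholesterol efflux and storage, 2 were called higher and 1 lower in stress NT. Abca1, the cholesterol exporter, rose from 40.7 ± 2.49 to 157 ± 18.3 (0.68 ± 0.06, adjusted p = 7.48e-09). Nr1h2, a receptor for oxysterols, rose from 3545 to 6631 (0.85 ± 0.08, adjusted p = 9.00e-09). Of 18 other fatty acid genes 3 were called higher and 3 lower in stress NT, among them Pparg (0.76 ± 0.07, adjusted p = 6.16e-09) and the lipid droplet coat gene Plin2 (0.71 ± 0.06, adjusted p = 1.11e-08), both higher. Of 9 isoprenoid branch genes, Coq2, of ubiquinone synthesis, was called lower there (-0.77 ± 0.05, adjusted p = 4.50e-11).

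In tumours, 13 genes of the set were analysed, Insig1 and Fads2 not among them, and values varied over several orders of magnitude within groups. Hmgcs1 had 28.2, 0.308, 0 and 28710 normalised counts in the NT tumours, 1409, 8.92, 12530 and 334.9 with DRB, 178.3, 154, 0 and 0 with DkkMo, and 12.3, 0, 14.9 and 0 with the combination. NT tumour 4 was the highest NT tumour for Hmgcs1, Mvk, Cyp51, Msmo1, Dhcr7, Srebf2, Scap, Insig2, Acly, Acss2 and Scd2. Summed osteoblast and osteosarcoma markers ranged from 25920 to 3480000 in NT, 116000 to 1629000 with DRB, 29290 to 80600 with DkkMo and 23370 to 113300 with the combination. Summed endothelial markers ranged from 9376 to 193800, 22340 to 98010, 12400 to 23260 and 18680 to 28460 in the same order. Their part in the differences between tumour groups was not tested.

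**Figure D3:**
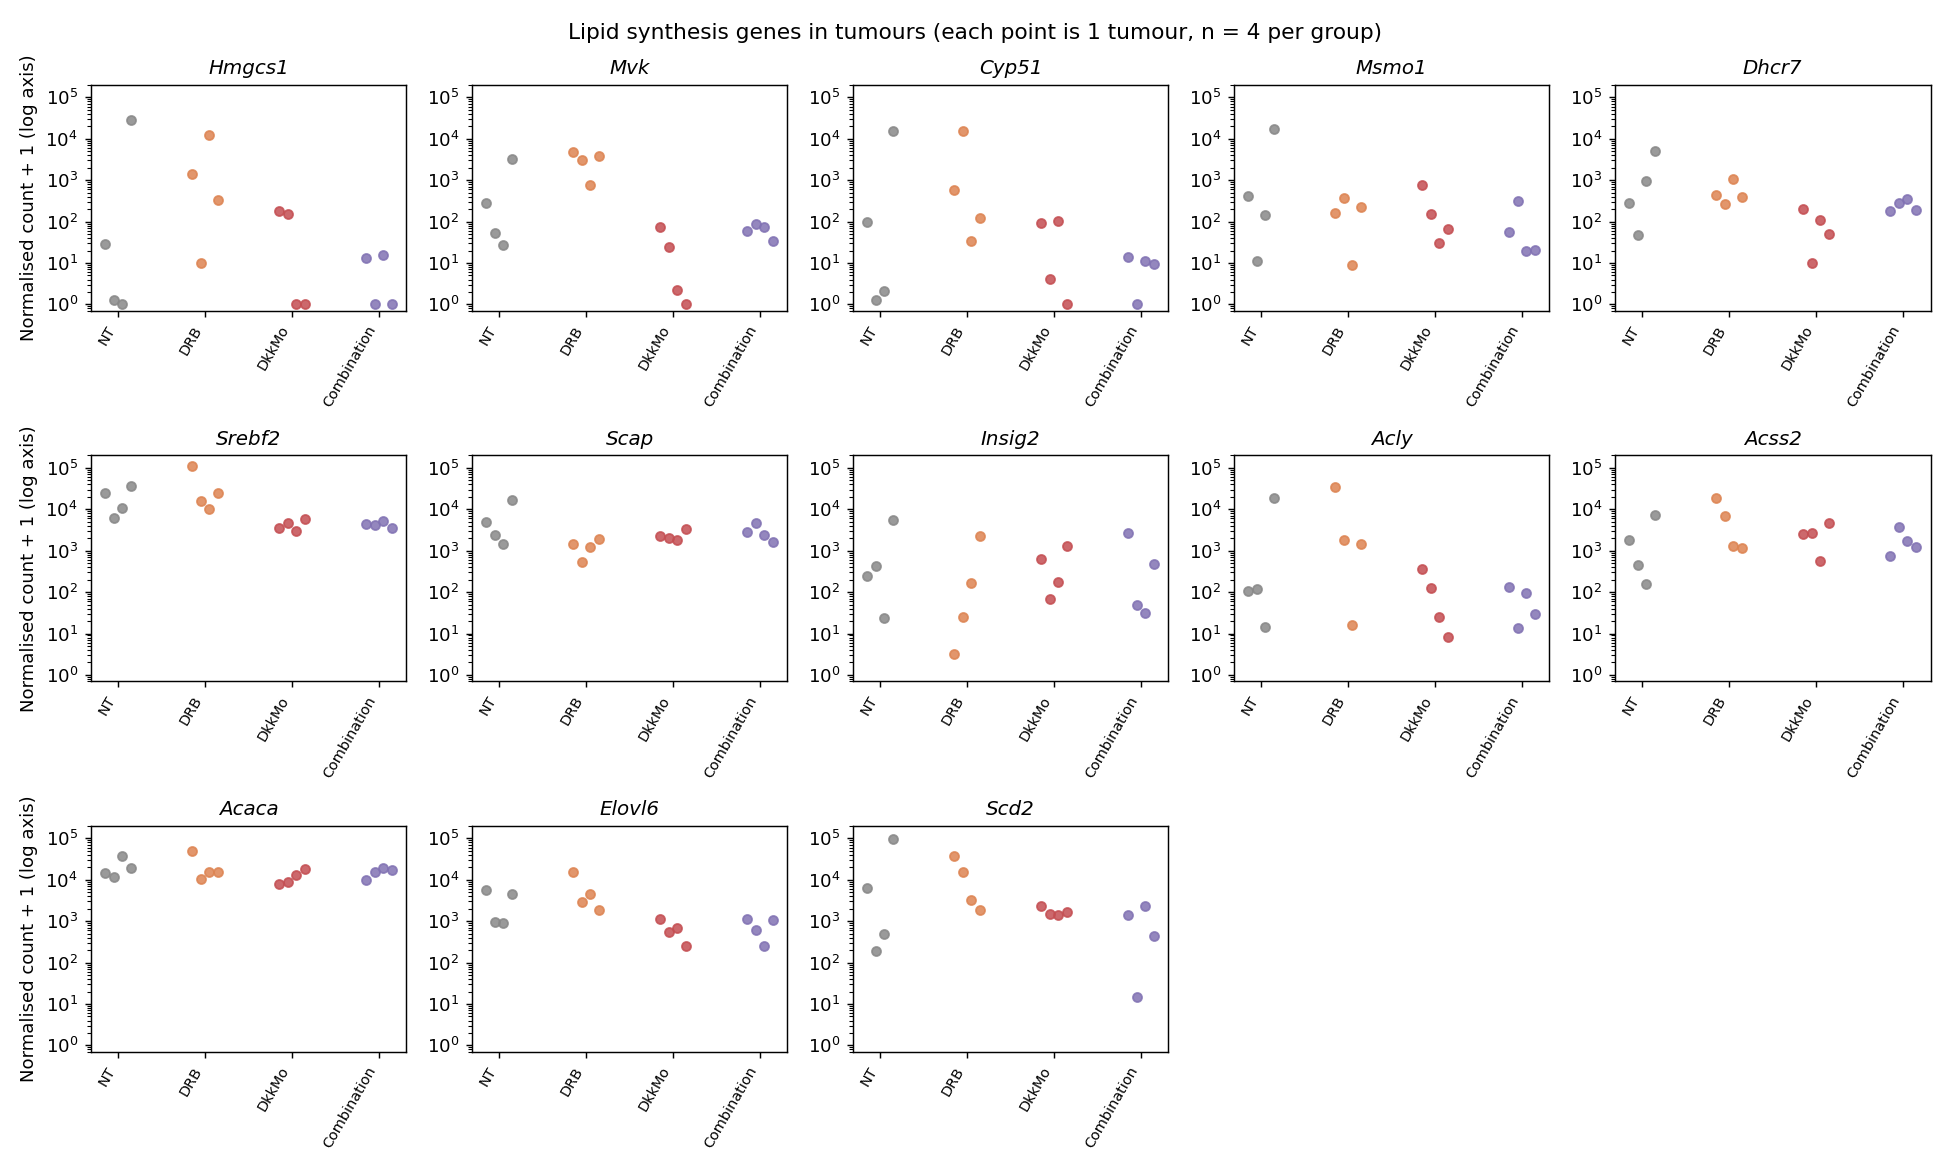
Normalised counts plus 1, on a log axis, of the 13 genes analysed in tumours, with 1 point per tumour (n = 4 per group) and no mean drawn. By normalised count, Mvk and Srebf2 were lower in every combination tumour than in every DRB tumour, and most other genes spread widely within groups.

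In combination against DRB tumours 2 genes of the set were called lower and 0 higher, beside 7.35% of all genes. The median over the 13 genes was -2.46 against -0.71 over all genes, and the library medians themselves differed by -1.04. Mvk had 4769, 3097, 756.2 and 3876 normalised counts with DRB and 58.5, 87.5, 73.8 and 32.9 with the combination (-3.94 ± 0.95, adjusted p = 0.0203). Srebf2 had 112400, 15950, 10050 and 24560 with DRB and 4341, 4288, 5100 and 3546 with the combination (-2.55 ± 0.63, adjusted p = 0.0217). By normalised count the groups did not overlap for either gene. That was so for 4 of the 13 genes (with Cyp51 and Elovl6), beside 20.4% of all genes. Size factors did not follow depth in the tumours. DRB replicate 2 had a size factor of 0.4485 at 105.4 megareads, and Combination replicate 3 had 1.273 at 35.21 megareads. Srebf2 had 7155 and 6492 reads in these tumours, so by share of megareads the groups overlapped for Srebf2. The part of the size factors in these differences was not tested. Neither call was stable: both were lost with limma voom on the recovered reads (adjusted p = 0.0884 for Mvk and 0.0983 for Srebf2) and without DRB replicate 1, Combination replicate 2 or Combination replicate 4. The Srebf2 call was also lost without Combination replicate 1 and with each library centred on its median (-1.51, adjusted p = 0.134), and the Mvk call on log2 normalised counts (adjusted p = 0.0622). Elovl6 had 15280, 2856, 4416 and 1852 with DRB and 1131, 596.5, 256.9 and 1087 with the combination (-2.46 ± 0.77, adjusted p = 0.0561). These did not overlap by normalised count.

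Of DkkMo against NT, DRB against NT and combination against DkkMo tumours, limma called 0 of the 13 genes and 0 of all genes. By unadjusted p below 0.05 the counts were 3, 2 and 0 of 13, beside 12.3%, 11.9% and 1.19% of all genes. Srebf2 had 24310, 6332, 10870 and 35570 normalised counts in NT tumours and 3480, 4679, 3051 and 5724 in DkkMo tumours (-1.89 ± 0.63, adjusted p = 0.288). By normalised count these groups did not overlap. NT tumour 3 had 9586 Srebf2 reads at 69.31 megareads, and DkkMo tumour 2 had 6137 at 36.08, so by share of megareads the groups overlapped. Mvk had 274, 50.9, 26.1 and 3227 in NT tumours, overlapping its DRB values (2.72 ± 0.95, adjusted p = 0.254). Without NT tumour 4, Mvk was called higher with DRB (3.72, adjusted p = 0.0375), the 1 gene of the set called in these comparisons when any 1 tumour was left out.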

How the data were processed

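RNA was sequenced from 18 cultures and 16 tumours. The authors aligned reads to GRCm38 (HISAT2 2.1.0 and SAMtools 1.9 are named in the submitters' processing notes), counted them per gene with featureCounts of Subread 2.0.0 and deposited variance-stabilised log2 values made with DESeq2, 1 table for cultures and 1 for tumours; the rule for keeping genes is not given in the sources used here. The transformation was reversed to normalised counts and then to reads, which came out whole within 0.05 for all values checked in cultures and for 91.2% to 100% per tumour library (values under 5000 reads). In the cultures 14 rows that differed by over 6 within a group were set aside; none was in the gene set. The main test was limma 3.58.1 (R 4.3.3) on the deposited log2 values, with a mean-variance trend and all libraries of a set in 1 model, over 16562 genes in cultures and 12595 in tumours. Calls needed a Benjamini-Hochberg adjusted p below 0.05 and a difference over 1.5-fold. A count model was not the main test because the values used here are transformed.

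All p-values are two-sided, and SE is that of limma. Alternatives were no fold threshold, log2 normalised counts plus 1, limma voom on recovered reads, centring on library medians, no filter, genes above the median gene, only the groups compared, a replicate block and leaving out each library. Exon lengths and overlaps came from GENCODE vM21 (GRCm38) and promoters from RefSeq. Scripts were tested on simulated data. The genes of the set and the other lists were chosen with earlier results of these data known; every gene of the set may be named, with genes called and those of the lists. The stress NT libraries numbered 2 and 3, whose titles share a number, differed by more than counting noise (chi-square per gene 6.04) and were counted separately. Depth and counting error limit genes with few reads, such as Idi1. Same-numbered log DkkMo and scrMo libraries correlated in their deviations at -0.0487 to 0.624. The mean was 0.382, against -0.18 for other numbers, and 2 of 3 libraries correlated best with their own number. Between stress DkkMo and scrMo libraries these means were -0.0263 and 0.013. The numbers were not used to pair samples in the main fit, and a replicate block was run as an alternative. Results for some genes of the other lists are not reported here.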

Additional observations from a re-analysis of the deposited data

Results flagged for a closer look

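In the cultures, the scrMo effect against NT differed between nutritional stress and log phase for Insig1 (2.36 on the log2 scale, SE 0.13, adjusted p = 1.14e-10 by limma) and Fads2 (1.076, SE 0.12, adjusted p = 1.17e-06). Insig1 was lower with scrMo in 3 of 3 log-phase libraries and higher in 3 of 3 stressed libraries than in all NT libraries of the same condition. The DkkMo effect against scrMo differed in the opposite direction for Insig1 (-1.287, SE 0.13, adjusted p = 1.48e-06) and Fads2 (-0.788, SE 0.12, adjusted p = 1.48e-04). Both differences use the same scrMo libraries, so they are not independent of each other.

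In the tumours, NT tumour 4 lay far above the other NT tumours for Hmgcs1 (deposited log2 value 14.82) and Acly (14.17), past Dixon's 95% critical value for 4 samples. Of 52 groups tested, chance alone flags about 1 in 20. Without NT tumour 4, limma called 0 genes of the set in DkkMo against NT tumours and 1, Mvk (3.72, adjusted p = 0.0375), in DRB against NT tumours.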

How the results depend on the processing

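No gene of the set changed direction among its calls under any alternative run. Of the values of called genes, 200 kept their call and 9 lost it under other settings, and 189 kept it and 13 lost it when 1 library was left out; the cause was not tested. In the order DkkMo against scrMo in log phase, then under stress, scrMo against NT in log phase, then under stress, DkkMo against NT in log phase, then under stress, stress against log phase in NT, scrMo and DkkMo cultures, and the changes of the DkkMo-scrMo and scrMo-NT effects, the calls numbered 2, 0, 1, 2, 0, 1, 6, 3, 8, 2 and 2. With no fold threshold they were 16, 5, 11, 12, 2, 13, 24, 20, 23, 14 and 17. On log2 normalised counts, which are not compressed at few reads, 4, 1, 5, 4, 12, 6, 13, 6 and 10 were called in the same order, leaving out both log-phase comparisons with NT. With limma voom these were 4, 1, 4, 4, 12, 6, 13, 5 and 10. The shares of all genes called under these settings and those that follow are not given, so the counts describe the set alone. Centring on library medians gave 1 for DkkMo against scrMo in log phase, 5 for stress in DkkMo cultures (4 lower, 1 higher) and 4 for the change of the scrMo-NT effect. Genes above the median gene gave 1 for scrMo against NT under stress, 5 for stress in DkkMo cultures, and 1 for each of the changes of the effects, where 23 of the 31 genes were tested. The 8 left out were Acss2, Fads2, Hsd17b7, Idi1, Mvk, Nsdhl, Pmvk and Stard4, and with these gone the stress calls were 4 in NT and 2 in scrMo cultures. For combination against DRB tumours (2 calls), log2 normalised counts gave 1, limma voom 0, centring 1, genes above the median gene 1, and only the groups compared 4.

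Leaving out 1 library at a time gave 1 to 2 calls for DkkMo against scrMo in log phase (1 without log DkkMo replicate 2 or log scrMo replicate 2), 2 to 4 for the change of the DkkMo-scrMo effect, 2 to 4 for that of the scrMo-NT effect, 0 to 3 for combination against DRB tumours and 0 to 1 for DRB against NT tumours. With a replicate block the counts were 2 for DkkMo against scrMo in log phase, 0 under stress, 1 for scrMo against NT and 0 for DkkMo against NT in log phase, 3 and 8 for stress in scrMo and DkkMo cultures and 2 for the change of the DkkMo-scrMo effect, all unchanged. No paired analysis was possible for the other comparisons because the stress NT titles repeat a number and the tumours carry no shared numbers. Counts of few reads (Idi1, Pmvk) and fixed tumour tissue limit precision.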

Other observations

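Over the 18 culture libraries, the genes outside the set whose deposited values were most like the mean of the 16 mevalonate and sterol-step genes, of 11718 with a mean of at least 100 normalised counts, were Btd (Pearson correlation 0.96), Nsg1 (0.96), Hacd4 (0.96), P4ha3 (0.95) and Olfml3 (0.95). The libraries share stress and morpholino groups, so these describe a pattern and carry no test. Hacd4, a dehydratase of fatty acid elongation, had mean normalised counts of 1050 in log NT, 544 in log scrMo and 1295 in log DkkMo cultures, against 203.7, 242.4 and 224.4 under stress. Within the set, Acss2 (-0.75), Lss (-0.69) and Mvd (-0.60) ran opposite to the mean of the other mevalonate and sterol-step genes.

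Lipa, the lysosomal lipase that frees cholesterol, shared the turn of Insig1 in direction. Its scrMo effect against NT was called higher under stress, with means of 2417 and 1291 normalised counts (0.78 ± 0.06, adjusted p = 5.19e-09 by limma), and the change of that effect from log phase to stress was 1.18 ± 0.08 (adjusted p = 2.26e-09). Acacb, the mitochondrial acetyl-CoA carboxylase, had 334.9 and 146.2 under stress (0.62 ± 0.07, adjusted p = 1.13e-06), and the change of its effect was 0.68 ± 0.10 (adjusted p = 2.35e-05). Plin2 went the other way, with a change of -0.70 ± 0.09 (adjusted p = 5.95e-06). The comparisons of scrMo with NT share their NT and scrMo libraries with those of Insig1.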
